A study of Mus musculus with 10 samples.

Results

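The 32 genes described here make cholesterol and fatty acids or regulate and serve that synthesis. They were taken by symbol from a fixed list of enzymes and regulators, with 1 array probe set per gene, the one with the highest mean level over the 10 arrays. All 32 were found among the 18193 genes that the arrays name, and all 32 passed the filter on dim genes, which left 13644 genes. They comprised 14 enzymes of sterol synthesis, 5 regulators of the sterol response, the cholesterol carrier Stard4 and 12 genes of fatty acid synthesis, desaturation and elongation.

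The 10 arrays came from F2 mice of a cross between B6 and BALB, so alleles of both strains segregate among all the animals, controls included. Of these, 8 were labelled as cystic fibrosis knockouts, which lack a working Cftr chloride channel, and 2 as controls. The titles split the knockouts into H (5 arrays) and L (3 arrays). No label explains these letters, although the title of the series mentions weight that varies. In the controls a D takes their place, and whatever D codes cannot be told apart from the absence of the knockout. The titles also carry M (6 arrays) or F (4 arrays) and a number, which fell in an upper range for 5 knockouts (H 1 to 3, L 1 and 2) and in a lower range for the other 3 knockouts (H 4, H 5 and L 3) and both controls. Neither the animals' age nor the allele of the knockout is given in the labels. Replicate numbers used here follow the order of deposit and only name the arrays.

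Cholesterol is built from acetyl-CoA through mevalonate, isoprenoid units and squalene, and is finished from lanosterol by a series of sterol-modifying enzymes. Most of these enzymes are transcribed under the sterol regulatory element binding proteins, the factors encoded by Srebf1 and Srebf2. Scap escorts the precursors of these factors out of the endoplasmic reticulum when sterols are low, and the Insig proteins hold the complex back when sterols are high. Fatty acids are built from the same acetyl-CoA by acetyl-CoA carboxylase and fatty acid synthase, with NADPH from malic enzyme among others, and are then lengthened and desaturated. The epithelium of the small intestine is, with the liver, a main site of cholesterol synthesis, and also takes up cholesterol from the lumen.

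Promoter windows are shown for 7 of the genes on which the comparisons below turn. Fads2, Me1, Dhcr7 and Srebf2 had the smallest p-values among these genes between knockout and control, Idi1 and Msmo1 had them between H and L, and Hmgcs1 was added after its values were seen. Each window holds the 250 bases before the most upstream RefSeq start of the gene (build GRCm38.p6), read 5′ to 3′ on the gene's strand. Capitals mark matches on either strand to the sterol regulatory element core TCACNCCA, the CCAAT box bound by NF-Y and the E-box CACGTG.
Fads2: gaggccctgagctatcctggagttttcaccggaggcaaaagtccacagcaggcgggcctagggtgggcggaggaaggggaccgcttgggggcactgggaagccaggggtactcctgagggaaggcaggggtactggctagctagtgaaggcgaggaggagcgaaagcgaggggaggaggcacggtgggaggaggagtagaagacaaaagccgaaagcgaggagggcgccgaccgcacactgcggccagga
Me1: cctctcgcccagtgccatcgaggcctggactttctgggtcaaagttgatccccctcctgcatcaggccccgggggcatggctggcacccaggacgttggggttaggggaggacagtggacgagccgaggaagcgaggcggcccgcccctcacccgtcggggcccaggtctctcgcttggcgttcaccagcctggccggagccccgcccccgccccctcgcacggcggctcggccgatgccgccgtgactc
Dhcr7: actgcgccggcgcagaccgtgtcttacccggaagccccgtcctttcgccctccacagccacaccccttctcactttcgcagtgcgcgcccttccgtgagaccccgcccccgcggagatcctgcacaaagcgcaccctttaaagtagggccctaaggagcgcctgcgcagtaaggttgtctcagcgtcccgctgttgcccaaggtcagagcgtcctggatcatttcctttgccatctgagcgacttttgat
Srebf2: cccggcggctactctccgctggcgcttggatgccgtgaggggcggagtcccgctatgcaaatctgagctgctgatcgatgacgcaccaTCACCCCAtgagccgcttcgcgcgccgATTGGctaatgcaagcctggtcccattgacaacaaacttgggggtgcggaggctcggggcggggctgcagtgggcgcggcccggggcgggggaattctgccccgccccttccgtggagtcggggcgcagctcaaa
Idi1: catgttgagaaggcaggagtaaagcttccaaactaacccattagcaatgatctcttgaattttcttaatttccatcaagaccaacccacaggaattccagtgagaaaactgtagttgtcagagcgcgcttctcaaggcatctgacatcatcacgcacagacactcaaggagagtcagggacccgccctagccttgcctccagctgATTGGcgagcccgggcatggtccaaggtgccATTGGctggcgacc
Msmo1: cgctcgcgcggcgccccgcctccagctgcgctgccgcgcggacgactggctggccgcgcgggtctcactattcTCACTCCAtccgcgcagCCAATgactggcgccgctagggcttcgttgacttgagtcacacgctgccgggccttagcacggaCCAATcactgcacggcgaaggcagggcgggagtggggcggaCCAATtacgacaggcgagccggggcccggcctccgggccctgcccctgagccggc
Hmgcs1: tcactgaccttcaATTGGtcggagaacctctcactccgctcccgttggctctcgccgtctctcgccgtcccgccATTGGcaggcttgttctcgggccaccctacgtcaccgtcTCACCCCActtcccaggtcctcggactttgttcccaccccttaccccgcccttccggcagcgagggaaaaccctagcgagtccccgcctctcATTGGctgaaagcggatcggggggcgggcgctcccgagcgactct
The windows lie at chr19:10101504-10101753 on the minus strand for Fads2, chr9:86695915-86696164 on the minus strand for Me1, chr7:143822917-143823166 on the plus strand for Dhcr7, chr15:82147019-82147268 on the plus strand for Srebf2, chr13:8885356-8885605 on the plus strand for Idi1, chr8:64733579-64733828 on the minus strand for Msmo1 and chr13:119690101-119690350 on the plus strand for Hmgcs1. By the RefSeq gene list none of them overlapped another gene except that of Me1, which overlapped the long non-coding RNA gene A330041J22Rik on the same stretch. RefSeq lists 3 starts for Dhcr7 and 2 for Me1, and only the most upstream is shown.

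Of these windows 3 held the sterol element core, beginning 137 bases before the start in Hmgcs1, 177 bases before it in Msmo1 and 162 bases before it in Srebf2. The CCAAT box stood 3 times in the windows of Hmgcs1 and Msmo1, 2 times in that of Idi1 and 1 time in that of Srebf2. Windows of Fads2, Me1 and Dhcr7 held none of the 3 motifs at the start shown. Of the starts not shown, 1 of Dhcr7 held the CCAAT box 2 times, 1 of Dhcr7 held the E-box, and that of Me1 held the CCAAT box 1 time. Across all 34 starts found for 25 of the 32 genes, CCAAT was present in 61.8%, against 33.9% of all 32841 mouse starts with a window of the same length. The 14 starts of the 11 matched sterol enzymes held it in 78.6%, and each of the 11 genes had it at 1 start or more. The sterol element core was found at 8.82% of the 34 starts and 3.68% of all starts, the E-box at 14.7% and 6.02%, and the GC box GGGCGG, bound by Sp1 and not marked above, at 64.7% and 32.7%. These are matches of letters, which show neither binding nor its absence.

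As source the labels give the whole right lung, yet transcripts of small intestine epithelium were bright on every array. The summed intensity of the 14 enterocyte markers measured was 42020 and 43420 in the controls, 28550 to 30810 in knockout H and 26700 to 36710 in knockout L, with lactase (Lct) near background. Alveolar type 2 cell markers were present at 2236 to 7006 over all arrays, with Nkx2-1 near background, and were highest in knockouts H 2 and H 5. The 6 club cell markers, none near background, summed to 10230 and 12290 in the controls. Their sums were 12460 to 16550 in knockout H and 12310 to 14960 in knockout L. The mean log2 deviation of this list was also highest in H 2 and H 5, at 0.915 and 0.583. Among the 7 hepatocyte markers measured, albumin (Alb), Apoa2, Ahsg and Fgb were near background and Ttr was dim. Cps1, a urea cycle enzyme that small intestine also expresses, was bright at 1201 to 1574 on every array. Tat, tyrosine aminotransferase, measured 58.5 and 59.9 in the controls and 94.8 to 306 in the knockouts, a difference of 1.52 with an adjusted p of 0.0526. Cftr itself fell, from 131 and 137 in the controls to between 19.7 and 35.5 in the knockouts (28.1 ± 6.63, SD, n = 8, against 134 ± 4.47, n = 2), a log2 difference of -1.91 ± 0.16 (SE) with an adjusted p of 0.00528. Differences here are on the scale of log2(intensity + 16), come from limma's moderated test with the number range and the M or F letter as covariates, and carry p-values adjusted over all 13644 genes. In such bulk samples fewer cells of a type and less RNA per cell cannot be told apart.

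The first question was whether the synthesis genes differ between knockout and control. None of the 32 passed the threshold of 0.05 after adjustment, while 4.31% of all genes tested did, 1.52% higher and 2.79% lower. At an unadjusted p under 0.05 there were 4 of the 32 (12.5%), Fads2 and Me1 with positive and Dhcr7 and Srebf2 with negative estimates, against 19.4% of all genes (8.66% higher and 10.8% lower). The smallest adjusted p of the 32 was 0.142. The median difference of the 32 was -0.05 and that of all genes -0.0047, with 22 of 32 estimates below 0 (68.8%) against 51.3% of all genes. For 29 of the 32 the whole 95% interval lay within 1 log2 unit of 0, the exceptions being Me1, Scd1 and Dhcr7; for all genes this share was 94.3%. Because the controls have numbers of the lower range, these estimates rest on the 3 knockouts there against the 2 controls, and the other 5 knockouts inform the spread and the letter. Of all genes 588 passed, but 0 in limma without control replicate 1 (1783 at an unadjusted p under 0.05), where Cftr stood at an adjusted p of 0.0894, 57 without control replicate 2, and 121, 191 and 263 without knockouts H 4, L 3 and H 5 in turn.

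**Figure D1:**
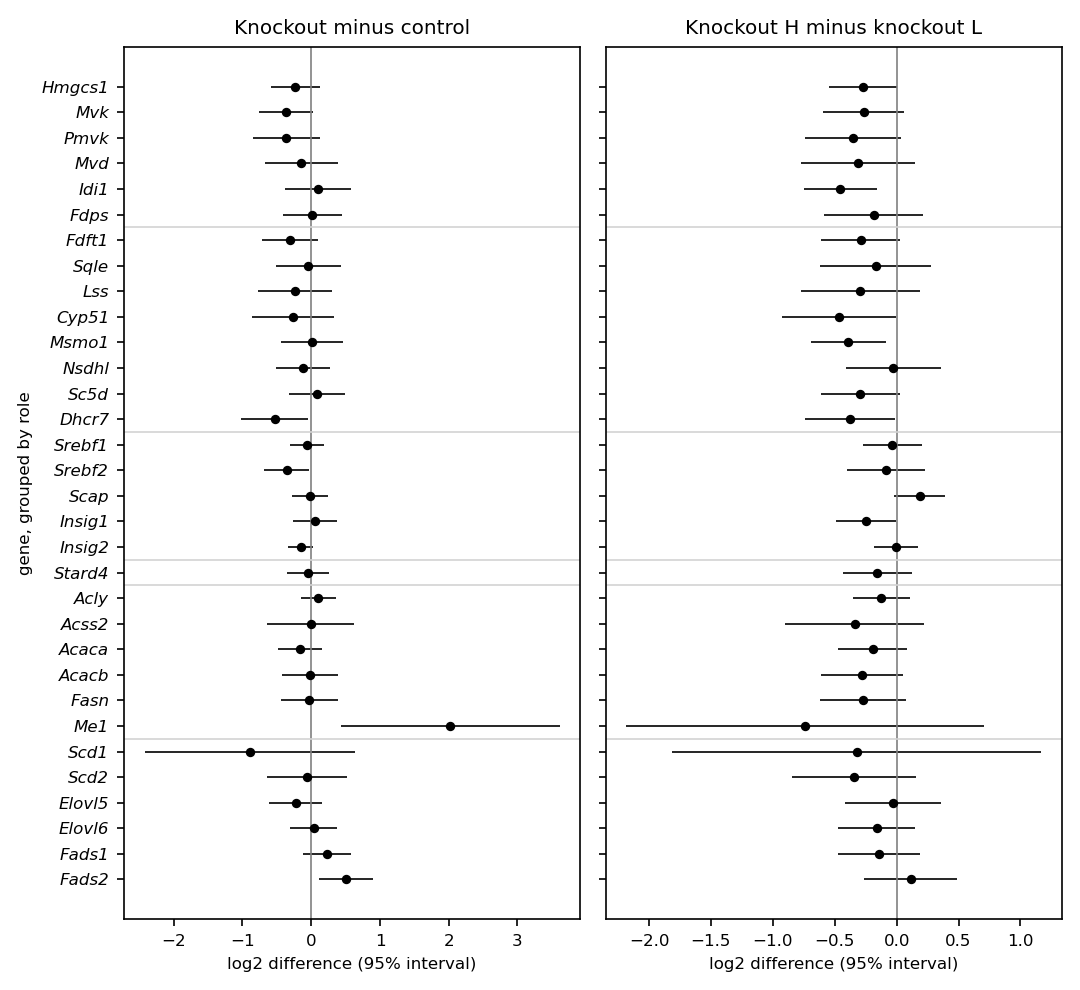
Log2 difference (x axis, log2(intensity + 16) scale) of each of the 32 genes, with its 95% interval, for knockout minus control on the left and knockout H minus knockout L on the right. On the left the point of Me1 stands apart at 2.02 and the interval of Scd1 is the widest below 0; on the right 30 of 32 points lie below 0.

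Enzymes of the mevalonate branch had estimates between -0.36 and 0.10 in the knockouts. Mvk, mevalonate kinase, measured 127 and 122 in the controls and 79.0 to 154 in the knockouts, 7 of which lay below both controls, with a difference of -0.36 ± 0.18 and an adjusted p of 0.301. Pmvk, the next kinase, measured 139 and 155 in the controls and 102 to 203 in the knockouts, with a difference of -0.36 ± 0.22 and an adjusted p of 0.416. In both genes the 1 knockout above the controls was knockout L replicate 1. The synthase Hmgcs1, which supplies HMG-CoA, differed by -0.23 ± 0.16, the decarboxylase Mvd by -0.15 ± 0.23, the isomerase Idi1 by 0.10 ± 0.21 and the farnesyl diphosphate synthase Fdps by 0.02 ± 0.19, none of them past the threshold.

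From squalene to cholesterol, Dhcr7, the reductase that yields cholesterol itself, stood lowest relative to its controls. It measured 276 and 268 in the controls, 169, 153, 123, 193 and 161 in knockouts H 1 to 5 and 242, 170 and 207 in knockouts L 1 to 3. All 8 knockouts lay below both controls (177 ± 36.4 against 272 ± 5.67), as was so for 11.7% of all genes, while 10% of all genes and none of the 32 had all knockouts above. Its difference was -0.53 ± 0.21 (95% interval -1.02 to -0.05) with an adjusted p of 0.212, and in the lower number range alone it passed the threshold at -0.54 with an adjusted p of 0.0232. That limma fit uses the same 3 knockouts and 2 controls on which the main estimate rests, with the spread taken from those arrays alone. It is thus no separate evidence. Set against the same controls, knockout H differed by -0.63 (adjusted p = 0.114) and knockout L by -0.25 (adjusted p = 0.674).

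The squalene synthase Fdft1, which commits farnesyl diphosphate to sterols, had 7 of 8 knockouts below both controls and a difference of -0.31 ± 0.18 with an adjusted p of 0.395. Cyp51, the lanosterol demethylase, differed by -0.26 ± 0.27, lanosterol synthase (Lss) by -0.23 ± 0.24 and the sterol dehydrogenase Nsdhl by -0.11 ± 0.17. Squalene epoxidase (Sqle) differed by -0.05 ± 0.21, the methylsterol oxidase Msmo1 by 0.01 ± 0.20 and the sterol desaturase Sc5d by 0.08 ± 0.18. Over the 14 sterol enzymes the median was -0.19, with 10 estimates below 0 and none past the threshold. The median of the enterocyte marker list moved the same way, at -0.55, with 11 of 14 estimates below 0 and 3 above, up to 0.65. The 4 of 14 genes past the threshold, Cdx2, Vil1, Anpep and Fabp2, were all lower. Their adjusted p-values in limma were 0.0712 to 0.215 without either 1 of the controls. Apoa4 went the other way, at 505.6 and 610.3 in the controls and 665.5 to 2269 in the knockouts. With the enterocyte level of each array as a further covariate, the median of the sterol enzymes turned to 0.39 and that of the 32 genes to 0.27, and 0 of all genes passed in limma (1322 at an unadjusted p under 0.05), Cftr standing at -1.62 with an adjusted p of 0.218. Among the knockouts only L 1, at a mean deviation of 0.27, came near the enterocyte level of the controls (0.34 and 0.30). How far the turned medians rest on that 1 array was not tested.

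Among the regulators, Srebf2, the factor that mainly drives sterol genes, was the one whose groups did not overlap. It measured 359 and 344 in the controls, 208, 154, 215, 295 and 267 in knockouts H 1 to 5 and 232, 215 and 261 in knockouts L 1 to 3. Every knockout lay below both controls (231 ± 43.7 against 351 ± 10.6), with the 3 lower-range knockouts above the 5 of the upper range. All knockouts lay below both controls in 2 of the 32 genes (6.25%), against 11.7% of all genes. The difference was -0.35 ± 0.14 (95% interval -0.68 to -0.03) with an adjusted p of 0.223, and without knockout H replicate 2, the lowest array, it passed at -0.34 with an adjusted p of 0.0461. A second probe set of Srebf2, at 176 and 184 in the controls and 120 to 188 in the knockouts, overlapped between the groups and differed by -0.15.

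The remaining regulators differed less. Srebf1, the factor more tied to fatty acid genes, measured 254 and 230 in the controls and 193 to 242 in the knockouts, a difference of -0.06 with a 95% interval of -0.30 to 0.18. Scap measured 256 and 220 against 191 to 267, and differed by -0.02 (95% interval -0.28 to 0.24). Insig1, itself a target of the sterol response, measured 211 and 239 against 217 to 333, and differed by 0.06 (95% interval -0.26 to 0.38). Its relative Insig2 differed by -0.15 ± 0.08 with an adjusted p of 0.347. For Srebf1, Scap, Insig1 and Insig2 a change of 1 log2 unit lies outside the interval in both directions. Stard4, which moves cholesterol between membranes, differed by -0.04 ± 0.14.

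Malic enzyme, Me1, which makes NADPH in the cytosol, had the largest estimate of the 32 genes. It measured 112 and 144 in the controls, 225, 95.1, 575, 646 and 432 in knockouts H 1 to 5 and 717, 189 and 607 in knockouts L 1 to 3. Of the knockouts 7 of 8 lay above both controls and H 2 lay below both, and the group spanned 95.1 to 717 (436 ± 237 against 128 ± 22.2). The 3 knockouts of the lower range were all high, while those of the upper range held both the lowest and the highest values.

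The difference of Me1 was 2.02 ± 0.70 (95% interval 0.44 to 3.61), or 4.07-fold, with an adjusted p of 0.150. A second probe set gave 1.91 with an adjusted p of 0.113 over all probe sets. In the lower number range alone Me1 passed the threshold in limma, at 1.97 with an adjusted p of 0.00412. That fit uses the arrays on which the main estimate rests, with the spread taken from them alone. Me1 also passed with the alveolar type 2 level of each array as a covariate (2.36, adjusted p = 0.00393), without knockouts H 2 and H 5 (2.59, adjusted p = 0.0493) and with the adipocyte level as a covariate (2.65, adjusted p = 0.0259). Over all 24 other settings its estimate lay between 1.41 and 3.49 and its adjusted p between 0.00393 and 0.496. Knockout H differed from the controls by 1.84 and knockout L by 2.57, neither past the threshold. None of the 32 genes passed in either of these, which share the controls, against 2.43% of all genes for H and 0.344% for L.

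**Figure D2:**
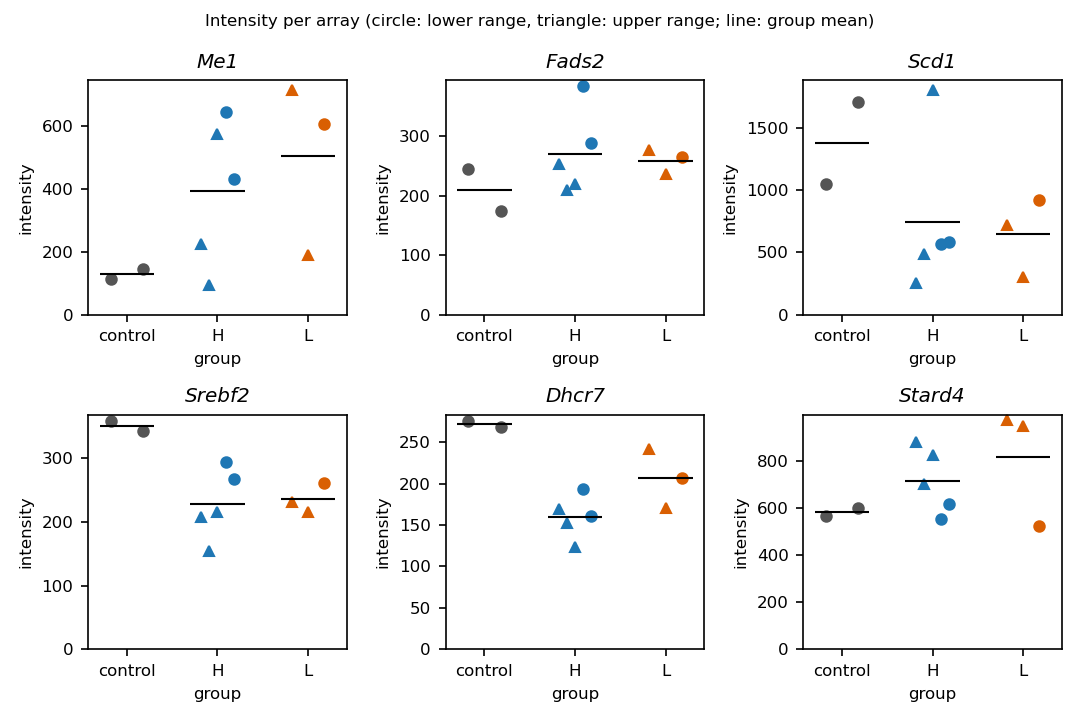
Intensity (y axis, linear) per array of 6 genes in controls, knockout H and knockout L, with circles for the lower and triangles for the upper number range and a line at each group mean. In Me1 the controls sit at 112 and 144 and 7 of 8 knockouts above them, in Srebf2 and Dhcr7 all 8 knockouts sit below both controls, and in Stard4 all triangles sit above all circles.

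The fatty acid synthesis genes other than Me1 showed small estimates. Fatty acid synthase, Fasn, measured 366 and 400 in the controls and 308.2 to 465 in the knockouts, a difference of -0.03 (95% interval -0.44 to 0.39). The carboxylases Acaca and Acacb differed by -0.16 ± 0.14 and -0.02 ± 0.18. Acly, which splits citrate into acetyl-CoA, differed by 0.10 ± 0.11, and Acss2, which activates acetate, by -0.01 ± 0.28. Acacb was the dimmest of the 32, at 16.9 to 37.0 over all arrays, close to the array medians, so its differences are understated on this scale.

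Fads2, the desaturase of the first step toward polyunsaturated fatty acids, had the smallest p of the 32. It measured 245 and 175 in the controls, 254, 209, 219, 384 and 288 in knockouts H 1 to 5 and 276, 236 and 265 in knockouts L 1 to 3. Only 5 of 8 knockouts lay above both controls (266 ± 54.7 against 210 ± 49.5). The difference was 0.51 ± 0.17 (95% interval 0.12 to 0.91) with an adjusted p of 0.142, and 2 other probe sets of the gene gave 0.03 and -0.18. Fads1, its neighbour in the pathway, differed by 0.23 ± 0.16, and the elongases Elovl5 and Elovl6 by -0.23 ± 0.17 and 0.04 ± 0.15.

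Scd1, the stearoyl-CoA desaturase that makes oleate and is abundant in fat, varied most after Me1. Its intensities were 1053 and 1710 in the controls, 255, 488, 1811, 567 and 587 in knockouts H 1 to 5 and 722, 304 and 924 in knockouts L 1 to 3. Thus 7 of 8 knockouts lay below both controls and H 3 above both, a 7.10-fold range over the 10 arrays. The difference was -0.89 ± 0.68 (95% interval -2.42 to 0.64) with an adjusted p of 0.537. Its paralogue Scd2 measured 1829 and 1973 in the controls and 1351 to 2909 in the knockouts, with a difference of -0.06 ± 0.26.

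Some adipocyte markers had their extremes on the same arrays as Scd1, and others did not. Adipoq, the adipocyte hormone adiponectin, measured 202 and 283 in the controls, 16.7, 53.9, 447, 115 and 70.1 in knockouts H 1 to 5 and 151, 55.3 and 118 in knockouts L 1 to 3. The array highest in Adipoq (H 3) was thus the highest in Scd1, and the array lowest in Adipoq (H 1) the lowest. Fabp4, the fatty acid binding protein of fat, had its highest and lowest values on the same arrays, at 985 and 128. Lipe, the 1 adipocyte marker past the threshold, did not follow Scd1, at 65.3 in H 3 against 84.8 in H 4 and 89.4 in H 5, with its lowest value in H 2 (54.5). Of 10 listed adipocyte markers 8 were measured, their summed intensity being 1706 and 2258 in the controls, 358 to 2591 in knockout H and 647 to 1518 in knockout L, with Lep and Ucp1 near background. With the adipocyte level as a covariate, a setting added after the values of Scd1 were seen, the Scd1 difference was -0.11 with an adjusted p of 0.816, and the elongase gene Elovl5 passed at -0.41 with an adjusted p of 0.0475. The part of fat tissue in the Scd1 values was not otherwise tested.

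**Figure D3:**
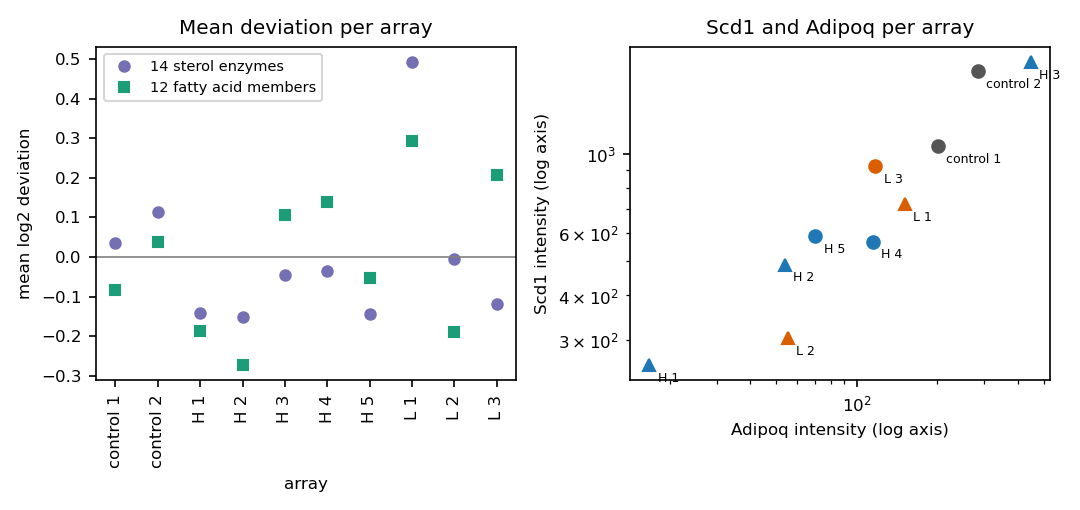
Left, mean log2 deviation from the gene means (y axis) of the 14 sterol enzymes (circles) and the 12 fatty acid members (squares) on each of the 10 arrays (x axis); right, Scd1 against Adipoq intensity per array on log axes, with group and replicate beside each point. Knockout L replicate 1 stands at 0.49 for the sterol enzymes, and the arrays with high Adipoq also have high Scd1.

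One array set the pattern of the sterol genes across animals. Knockout L replicate 1 had the highest value of all 10 arrays in 22 of the 32 genes (68.8%), against 7.31% of all genes tested. Among the 14 sterol enzymes it was highest in 13, and in the exception, Dhcr7, it was the highest knockout. The mean deviation of these enzymes from their gene means was 0.49 on this array, -0.15 to -0.005 on the other 7 knockouts and 0.04 and 0.11 on the controls. Its values were 1.30 to 1.70 times the median of the other 9 arrays for the 14 sterol enzymes, with a median of 1.49, while the median over all genes was 0.997.

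Several enzymes show this plainly. Fdps measured 996 on that array and 578 to 717 on the others. Msmo1 measured 1479 there, 905, 853, 1038, 913 and 974 in knockouts H 1 to 5, 1010 and 1005 in the other knockouts L, and 953 and 968 in the controls. Fdft1 measured 1107 against 658 to 903 elsewhere. In each of these the 1 array stood above all other 9. Further probe sets of the same enzymes were also highest on it in 13 of 17 cases, and in 9 of 9 with a mean intensity above 50.

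**Figure D4:**
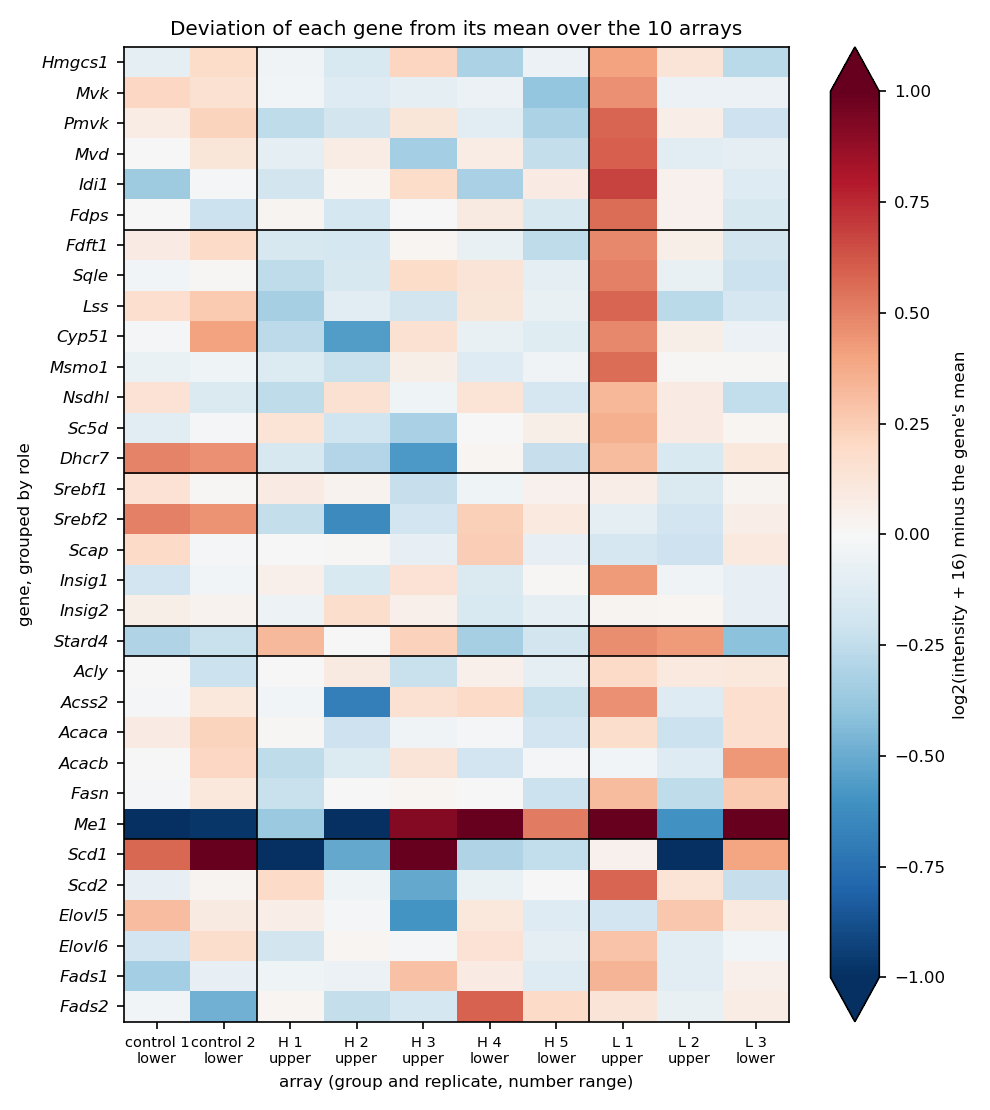
Deviation of each of the 32 genes (rows, grouped by role) from its mean over the 10 arrays (columns, by group, replicate and number range), in log2(intensity + 16) units, red above and blue below the mean. The column of knockout L replicate 1 is red in all 14 sterol enzymes, the top 2 blocks of rows, and the rows of Me1 and Scd1 show the widest spread.

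The same array was less distinct for the other roles. It was highest in 7 of the 12 fatty acid members (Acly, Acss2, Fasn, Me1, Scd2, Elovl6 and Fads1), where its mean deviation was 0.29 against -0.27 to 0.21 on the other knockouts, and its ratio to the median of the other arrays ran from 0.815 for Elovl5 to 3.18 for Me1. Insig1 was highest there, at 333 against 211 to 270 elsewhere, and so was Stard4, whereas Srebf1, Srebf2, Scap and Insig2 were not. Of 12 further genes of sterol synthesis and uptake it was highest in 2, Hsd17b7 (180) and Ebp (570). These were 2 of 5 further enzymes read array by array. The others were higher elsewhere: Tm7sf2 at 323 against 397 in control replicate 1, Lbr at 477 against 540 in H 2, and Ggps1 at 61.1 against 64.8 in H 3. Beside this, its enterocyte level stood at a deviation of 0.27 against -0.27 to 0.03 on the other knockouts and 0.34 and 0.30 on the controls, its smooth muscle level at 0.32 and its alveolar type 2 level at -0.27. The part of these in the pattern was not tested.

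The second question was whether knockouts H and L differ, and no gene passed the threshold in that comparison, so 0% of all genes and none of the 32 were called with limma. At an unadjusted p under 0.05 there were 6 of the 32 (18.8%), all lower in H, against 2.22% of all genes, 1.13% lower and 1.09% higher. The 6 were Idi1, Msmo1, Dhcr7, Cyp51, Hmgcs1 and Insig1, with adjusted p-values of 1.0. Estimates were below 0 for 30 of 32 genes (93.8%) against 50% of all genes, and for 14 of 14 sterol enzymes. The median was -0.27 over the 32 genes and -0.29 over the sterol enzymes, and 0.00 over all genes.

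Idi1, which interconverts the isoprenoid units, measured 799, 509 and 450 in knockouts L 1 to 3, 432, 500, 563, 392 and 524 in knockouts H 1 to 5 and 383 and 488 in the controls. Apart from L 1 the groups lay over each other. Its H minus L difference was -0.45 ± 0.13 (unadjusted p = 0.00756 by limma), that of Msmo1 -0.39 ± 0.13 and that of Cyp51 -0.46 ± 0.20. Hmgcs1 measured 2446, 2024 and 1533 in L against 1798, 1656, 2150, 1480 and 1771 in H and differed by -0.27 ± 0.12. Dhcr7 differed by -0.38 ± 0.16, Insig1 by -0.25 ± 0.11 and Pmvk by -0.35 ± 0.17.

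Without knockout L replicate 1 the median H minus L difference was -0.03 over the 32 genes, with 19 below 0, and -0.04 over the sterol enzymes, with 8 of 14 below 0. Idi1 was then at -0.27, Msmo1 at -0.14, Dhcr7 at -0.10, Cyp51 at -0.27, Hmgcs1 at -0.19 and Insig1 at -0.09, each at an unadjusted p of 0.115 or more in limma. In the same fit Fads2 stood at 0.46 (unadjusted p = 0.0071 by limma) and Acacb at -0.44 (unadjusted p = 0.0473 by limma). The remaining arrays of L carry the letter F, as does H 4 alone among H, so group and letter are partly mixed in that fit. In the lower number range, which lacks L 1 and holds 1 other array of L, the medians were -0.03 and -0.01. In the upper range, which holds L 1, they were -0.40 and -0.63. There the other array of L is the only 1 with the letter F, so the letter covariate absorbs it. That fit sets H against L 1 alone and restates the height of L 1. The lower tilt of H in the medians was thus much smaller without 1 array of L, though the single genes named above for the tilt stayed below 0. Acly was the 1 gene of the 32 with every H below every L (421 to 527 against 531.4 to 566), as was so for 0.652% of all genes, and none had every H above every L, as was so for 0.901%; its difference was -0.12 ± 0.10.

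Regulators showed small H minus L differences, Srebf1 at -0.04 ± 0.10, Srebf2 at -0.09 ± 0.14 and Scap at 0.19 ± 0.09. Me1 differed by -0.74 ± 0.63, and by 0.09 without L 1. Scd1 differed by -0.32 ± 0.65, an interval from -1.81 to 1.17 that holds large changes of either sign. Of the 32 genes 30 had an interval within 1 log2 unit of 0, the exceptions being Me1 and Scd1, against 97.5% of all genes.

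The last comparison set the upper against the lower number range, which only knockouts span. No gene of the 32 was past the threshold, against 0.3% of all genes, and 2 of 32 (6.25%) had an unadjusted p under 0.05, against 10.2% (5.39% higher and 4.83% lower in the upper range). Estimates below 0 were found for 17 of 32 against 51.4% of all genes, and intervals within 1 log2 unit of 0 for 30 of 32 against 97.2%. Stard4 measured 878, 702, 825, 973 and 946 in the upper range (H 1 to 3, L 1 and 2) and 552, 615, 522, 564 and 599 in the lower (H 4, H 5, L 3 and both controls). The ranges did not overlap, as was so in this direction for 3.10% of all genes. Its difference was 0.55 ± 0.12 (95% interval 0.27 to 0.82) with an adjusted p of 0.169, and the other 2 probe sets of the gene gave 0.11 and -0.22.

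Srebf2 was the 1 gene with every upper-range value below every lower-range value, as was so for 3.80% of all genes, and differed by -0.40 ± 0.14 with an adjusted p of 0.393. Me1 had the largest estimate, -1.23 ± 0.63 with an adjusted p of 0.554. In limma with the range alone, Stard4 (adjusted p = 0.00623) and Srebf2 (-0.54, adjusted p = 0.0345) passed. That fit leaves out the groups as well as the letter, so the controls are pooled with the lower-range knockouts. The difference between knockout and control, in which Srebf2 was lower, is thus mixed into it. With the groups kept and only the letter left out, Stard4 passed (adjusted p = 0.0346).

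Other genes of the same pathways were read from lists set beside these 32. Among 18 further genes of sterol synthesis and uptake, 12 were analysed here and 1 passed between knockout and control, Cyp27a1, the mitochondrial sterol hydroxylase. It fell from 146 and 139 in the controls to 68.8 to 95.6 in the knockouts (81.5 ± 8.42, n = 8, against 142.5 ± 5.57, n = 2), a log2 difference of -0.77 ± 0.11 with an adjusted p of 0.0119, which became 0.156 without control replicate 1 and 0.0813 without control replicate 2. The median of the 12 was -0.11, with 9 below 0. None of the 20 further genes of fatty acid synthesis and NADPH supply passed, and their median was -0.03.

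Among 17 further regulators 1 passed, Mlxipl, which encodes ChREBP, the carbohydrate-responsive activator of lipogenic genes. It measured 207 and 150 in the controls, 85.9, 88.8, 92.0, 114 and 97.8 in knockouts H 1 to 5 and 101, 82.8 and 89.4 in knockouts L 1 to 3, so that the groups did not overlap, as was so in this direction for 11.7% of all genes. Its log2 difference was -0.74 ± 0.14 with an adjusted p of 0.0221, which became 0.0505 to 0.255 without any 1 of knockouts H 4, H 5 and L 3 or control replicate 1. A further list held sterol efflux genes and other targets of the oxysterol receptor LXR (Abca1, Abcg1, Abcg5, Abcg8, Mylip and Lpcat3). It also held the bile acid receptor gene Nr1h4, which is not counted as such a target. All 7 had estimates below 0, against 51.3% of all genes, with a median of -0.30 and none past the threshold. The median of the enterocyte list named above also lay lower in the knockouts, with 3 of its 14 estimates above 0. With the enterocyte level as a covariate the differences were -0.67 for Cyp27a1 and -0.56 for Mlxipl, against -0.77 and -0.74 without it, with adjusted p-values of 0.368 and 0.459 in a setting where 0 genes of all tested passed. The part of the enterocyte level in these differences was not otherwise tested.

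Other cell type lists between knockout and control had 1 gene past the threshold each for adipocytes (Lipe, hormone-sensitive lipase, lower), crypt and cycling cells (Olfm4, higher) and goblet and Paneth cells (Agr2, higher), and none for alveolar type 2 cells, club cells, hepatocytes, pancreatic acinar cells, smooth muscle, T and B cells or macrophages and neutrophils. Their medians were -0.73, 0.31 and 0.48 for the first 3, and 0.38, 0.32, 0.01, -0.05, 0.06, -0.28 and 0.15 for the others in that order. The calls of Olfm4 and Agr2 were lost in 11 and 14 of the 24 other settings and that of Lipe in 3, each of them without either control among others. No gene of any list passed between H and L or between the number ranges.

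Of the 32 genes 23 had 1 or more further probe sets bright enough to test, 38 in all. None of these passed in any of the 3 comparisons when adjusted over 28249 probe sets, and 10 of 38 had the opposite sign to the probe set used for knockout versus control. A further probe set of Scd2 was 0.74 higher in H than in L (unadjusted p = 0.00467 by limma), opposite to the -0.34 of the one used.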

How the data were processed

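One table deposited by the authors holds linear intensities of all probe sets on the 10 arrays. How they were summarized and normalized is not given in the sources used here. The array medians (18.4 to 18.9) and 75th percentiles (58.8 to 63.0) were alike, so no further normalization was applied. Arrays have no read depth; the number of arrays, above all the 2 controls, limits the precision. Of 45101 probe sets, 64 controls, 932 with several symbols and 9160 with none were left out. Of the 34945 probe sets with a single symbol, 34741 were matched by gene identifier to the RefSeq gene list of GRCm38.p6. These took the symbol of that list, whether or not it differed.

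From the deposited intensities log2(intensity + 16) was computed, which understates differences of dim genes. Each gene is represented by the probe set with the highest mean log2 level. Genes at or under the 25th percentile of the mean level (an intensity of 13.6) were left out. Differences were fitted with limma 3.58.1 (lmFit, eBayes; R 4.3.3) with number range and letter as covariates and Benjamini-Hochberg adjustment at 0.05. Knockout versus control was fitted in 2 groups, H versus L and the number range in 3 groups sharing 1 spread. The fit was tested on simulated data. Promoter windows come from RefSeq tables.

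The 32 genes, the other lists and the alternatives were chosen with earlier results of these data known. Named in full are genes past the threshold, the 6 with the largest absolute difference in knockout versus control and in H versus L, and Srebf1, Srebf2, Insig1 and Scap. Of other lists, genes past the threshold are named. Dhcr7, Srebf2, Fads2, Stard4, Acly and the genes described for knockout L replicate 1 were in part singled out after their values were seen. Alternatives were other covariates, either number range alone, other pseudocounts and filters, quantile normalization, the mean of all probe sets, a trended spread, marker levels as covariates and each array left out. Nothing but the number in the title shows that the samples are separate animals, so the p-values cover no more than the spread among these arrays, which may be technical.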

Additional observations from a re-analysis of the deposited data

Results flagged for a closer look

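In 4 of the 32 genes the highest of the 8 knockout arrays stood far from the rest, and in each it was knockout L replicate 1. The gap to the next knockout, as a share of the whole range on the log2 scale, was 0.644 for Msmo1 (intensity 1479), 0.641 for Fdps (996), 0.573 for Fdft1 (1107) and 0.573 for Mvk (154). All 4 are enzymes of sterol synthesis. Gaps were examined in 64 sets of values, the 8 knockouts and the 5 knockouts H for each gene, and 4 sets were marked. Chance marks at most about 1 set in 20, since the cutoff used for the 8 knockouts was stricter than that rate. All 4 marked sets were among the 32 sets of the 8 knockouts, and none was a set of the knockouts H. A looser cutoff would mark more genes. The sets share the same arrays, so the marks are not independent, and whether their number exceeds chance was not tested. No gene had H and L on opposite sides of the controls, and none had the upper-range and lower-range knockouts on opposite sides.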

How the results depend on the processing

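No paired analysis was possible because the replicate numbers follow the order of deposit and the labels give the groups no shared numbers. Between knockout and control none of the 32 genes passed, as in 19 of 24 other settings; 2 passed in the lower range alone, 1 with the alveolar type 2 covariate, 1 without knockouts H 2 and H 5, 2 with the adipocyte covariate, and 0 to 1 with an array left out. Of all genes 588 passed, 1366 with no covariates, 1033 in the lower range, 956 with the alveolar type 2 covariate, 0 with the enterocyte covariate and 0 to 813 with an array left out. With the enterocyte covariate the medians were 0.27 for the 32 genes and 0.39 for the sterol enzymes, Mvk was at 0.0091 and Pmvk at 0.26. Scap turned to 0.0093 under quantile normalization, 0.029 with the mean of all probe sets, 0.078 without knockouts H 2 and H 5 and -0.094 to 0.088 with an array left out, and Srebf1 lay between -0.16 and 0.062 with an array left out. Between H and L none of the 32 genes passed in any of 25 settings, while 25 of all genes passed in the lower range, 1 with the enterocyte covariate and 0 to 0 with an array left out. The median of the 32 genes was -0.034 in the lower range and -0.37 to -0.030 with an array left out. That of the sterol enzymes was -0.012 in the lower range and -0.48 to -0.040 with an array left out. In the upper range, where the fit sets H against L 1 alone, it was -0.63. In that comparison Pmvk was at 0.008 in the lower range, Srebf2 at 0.15 there, at 0.012 without knockouts H 2 and H 5, at 0.062 with the enterocyte covariate and at -0.20 to 0.061 with an array left out, Me1 at -1.24 to 0.090 and Srebf1 at -0.082 to 0.041 with an array left out. Between the number ranges 2 of the 32 genes passed with no covariates, a fit that here also left out the groups, and 1 with the letter left out. Of all genes 41 passed there, 481 with no covariates, 150 with the letter left out, 26 with a pseudocount of 1, 13 with the mean of all probe sets, 1 without knockouts H 2 and H 5, 26 with the enterocyte covariate and 0 to 44 with an array left out. The cause was not tested in these cases. With 2 controls and levels near the array medians, small changes of dim genes such as Acacb could not be resolved.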
